A study of Mus musculus with 16 samples.

Results

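Interleukin-1 (IL-1) family cytokines are among the earliest signals of sterile tissue injury. The levels of 10 genes of this family were followed in mouse hearts, chosen by name for their part in the IL-1, IL-33 and IL-18 axes: the ligands Il1a, Il1b, Il33 and Il18, the antagonists Il1rn and Il18bp, and the receptor chains Il1r1, Il1r2, Il1rap and Il1rl1. Of the 10 genes, 9 were named by the platform annotation and were measured among 19505 named genes, each through 1 probe set; Il1rl1, which encodes the IL-33 receptor ST2, was not analysed here.

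The hearts came from 10-week-old wild-type male C57BL/6 mice, and each array was taken as 1 separate heart. In 3 groups the left anterior descending coronary artery was ligated for 30 min and then reopened for 6, 24 or 72 h of reperfusion, and the fourth group had sham surgery, with 4 hearts in each. The same sham hearts, for which the labels give no hour, serve as the control at all 3 times, so the 3 comparisons with sham share their controls. The labels name the heart as the tissue and do not say which part of it was taken, so injured and spared muscle cannot be told apart, and in bulk RNA fewer cells of a type cannot be told apart from less RNA per cell.

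IL-1α and IL-1β bind the receptor chain IL-1R1, which recruits the accessory chain IL-1RAP and signals through MyD88 and IRAK kinases to NF-κB. The receptor antagonist encoded by Il1rn occupies IL-1R1 without signalling, and IL-1R2 binds ligand as a decoy. IL-33 is a nuclear alarmin released from damaged stromal and endothelial cells, IL-18 and IL-1β are matured by caspase-1, and IL-18BP neutralises IL-18. In the injured heart this family is known for driving the recruitment of neutrophils and monocytes.

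The family is partly clustered in the genome. In the RefSeq gene table the receptor genes Il1r2, Il1r1, Il1rl2, Il1rl1, Il18r1 and Il18rap follow each other on chromosome 1 in a run of 8 genes, and Il1a and Il1b stand at the ends of a run of 4 genes on chromosome 2, the chromosome that also carries Il1rn. Windows of 100 bases upstream of annotated starts (RefSeq, GRCm38.p6) are shown for the 2 IL-1 ligands, Il33, Il1rn and Il1r1, each placed over a match. Relative to the start they run from -100 to -1 in Il1b, Il1a and Il33. In Il1rn the window runs from -200 to -101 and in Il1r1 from -250 to -151, so the windows do not compare the genes with each other. The capitals mark matches to TATAAA in the windows of Il1b, Il1a and Il33, to TGANTCA (an AP-1 element) in those of Il1a and Il1rn, and to the κB consensus in that of Il1r1.
Il1b, chr2:129371140-129371239, minus strand: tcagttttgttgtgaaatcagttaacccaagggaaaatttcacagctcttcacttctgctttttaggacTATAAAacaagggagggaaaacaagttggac
Il1a, chr2:129309973-129310072, minus strand: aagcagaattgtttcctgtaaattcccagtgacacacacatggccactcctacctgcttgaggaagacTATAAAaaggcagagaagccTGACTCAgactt
Il1rn, chr2:24336660-24336759, plus strand: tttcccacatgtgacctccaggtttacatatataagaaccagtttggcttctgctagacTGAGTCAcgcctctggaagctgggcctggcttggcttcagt
Il33, chr19:29945690-29945789, plus strand: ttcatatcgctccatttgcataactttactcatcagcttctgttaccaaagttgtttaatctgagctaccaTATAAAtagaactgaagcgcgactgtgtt
Il1r1, chr1:40266336-40266435, plus strand: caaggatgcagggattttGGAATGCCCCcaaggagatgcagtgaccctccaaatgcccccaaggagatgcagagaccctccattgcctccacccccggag

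The TATAAA match began 31 bases before the start in Il1b, 32 in Il1a and 29 at the downstream start of Il33. Both strands of all 15 promoters of the 10 genes, each running from 250 bases before to 50 bases after a start, were searched. TATAAA was present in 6 of the 15 promoters, from 5 genes, and in 13.6% of 32851 mouse promoters of the same length. TGANTCA was in 2 of the 15 and in 7.81% of all, the κB consensus in 1 and in 4.51%, and TTCNNNGAA (a GAS element) in 1, that of Il1r2, and in 8.3%. A match describes these letters and is not a binding site.

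Values are log2 signals as deposited, and a difference of 1 is a doubling on that scale. No detection calls were given, and a level below 6.76, the 75th percentile of 5222 negative control probe sets, is called below background. Where all sham arrays were below background, the fold is given as a lower bound against that level. The bound allows for the unknown sham level and leaves out the error of the group mean. Differences are from limma, fitted over all 16 arrays, with standard errors (SE) and p-values adjusted (Benjamini-Hochberg) over all 19505 genes, and a gene is called where the adjusted p is below 0.05.

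Against sham, 6 of the 9 measured genes were higher at 6 h, where 7.92% of all genes were higher and 12.3% lower. At 24 h 6 of 9 were higher, against 13.8% of all genes higher and 12.3% lower, and at 72 h 5 of 9, against 11.5% higher and 10.3% lower. None of the 9 was lower at any of these times. The same shares of all genes apply to the counts of listed genes against sham given below. The median change of the 9 genes was 3.16 on the log2 scale at 6 h, 1.35 at 24 h and 1.22 at 72 h, beside -0.04, -0.07 and -0.09 for all genes. An F test over the 4 groups called 7 of the 9, all but Il1a and Il18bp, and 44.5% of all genes.

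**Figure D1:**
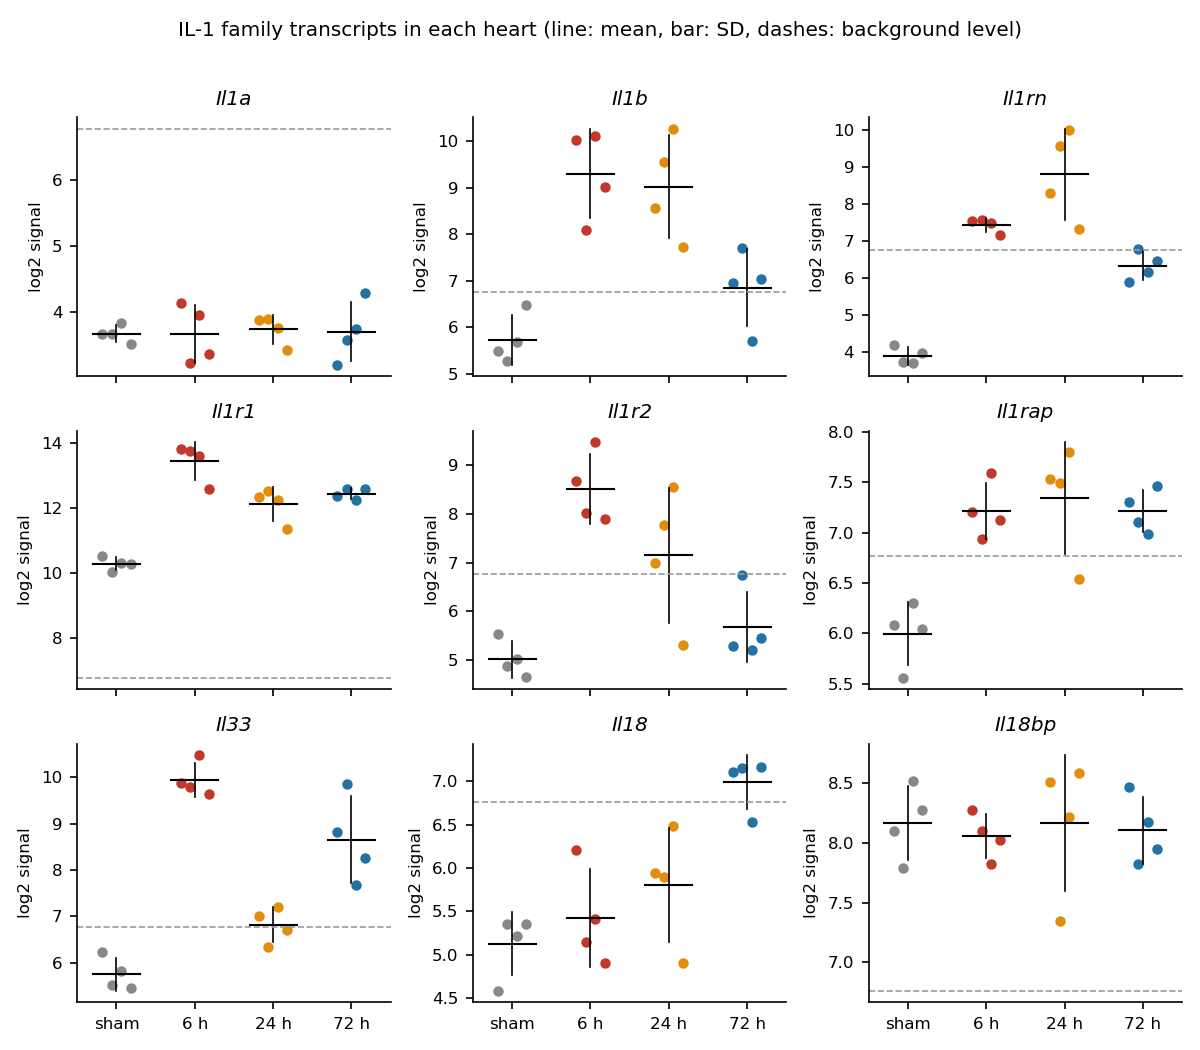
Log2 signal of each of the 9 measured genes on each array, by group, with the group mean (line), SD (bar) and the background level of 6.76 (dashes); n = 4 hearts a group. Il1b and Il1r2 had their higher group means at 6 h and 24 h, with overlap between those times, Il1rn was highest at 24 h and Il18 at 72 h, Il33 was high at 6 h and at 72 h with a lower level at 24 h between them, and Il1a stayed below background.

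Il1b, the ligand matured by caspase-1, was high at the early times and had come down by 72 h. Its log2 signals were 5.48, 5.27, 5.69 and 6.49 in sham hearts, 10.03, 8.09, 10.11 and 9.01 at 6 h, 8.57, 9.56, 10.26 and 7.72 at 24 h, and 6.96, 7.70, 5.72 and 7.03 at 72 h. All hearts at 6 h and at 24 h lay above all sham hearts, whereas the 72 h hearts overlapped sham. Relative to sham the change was 3.57 ± 0.51 at 6 h (SE, limma adjusted p = 3.5e-05), at least 5.83-fold, and 3.29 ± 0.51 at 24 h (limma adjusted p = 7.06e-05), at least 4.80-fold. At 72 h the difference was 1.12 (limma adjusted p = 0.129), and it passed the threshold without 72 h replicate 22 (1.502, limma adjusted p = 0.0448). It also passed with array weights and with only the 2 groups compared (limma adjusted p = 0.0329 and 0.0387). Centring on hybridization or poly-A spike-ins let it pass as well (limma adjusted p = 0.0118 and 0.0365), and under the remaining settings it did not pass. Il1b fell by 2.17 at 72 h relative to 24 h (limma adjusted p = 0.00652).

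Neutrophil markers, as a list, were raised mostly at 6 h and 24 h, as Il1b was, but they did not share a single course. At 24 h relative to 6 h 1 of the 9 measured was higher and 3 were lower, with changes from -3.53 to 2.28. Of all genes 17.3% were higher and 10.9% lower there, and Il1b differed by -0.28 (limma adjusted p = 0.722). Of 9 measured markers 6 were higher than in sham hearts at 6 h, 6 at 24 h and 2 at 72 h, and the mean log2 signal of the 9 per array was 3.99 to 4.34 in sham hearts, 6.40 to 8.15 at 6 h, 5.27 to 7.66 at 24 h and 4.62 to 5.74 at 72 h. Among them S100a8, an alarmin of neutrophil cytoplasm, rose by 5.03 at 6 h and by 5.11 at 24 h, Retnlg by 6.48 and 2.95 and Csf3r, the G-CSF receptor, by 3.0 and 5.28. Mmp8, a collagenase of neutrophil granules, rose by 4.26 at 6 h. The granule genes Camp and Ltf were below background in all groups and differed from sham by -0.20 and 0.07 at 6 h, with neither called. The part of these cells in the level of Il1b was not tested.

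Il1a encodes the other IL-1 receptor agonist, held in the cytoplasm and nucleus of many cells and active without cleavage. Its probe set lay below background on every array, with signals of 3.52 to 3.83 in sham hearts, 3.23 to 4.14 at 6 h, 3.43 to 3.90 at 24 h and 3.21 to 4.28 at 72 h. The 4 groups overlapped. The differences from sham were -0.00, 0.07 and 0.03 at 6, 24 and 72 h, with limma adjusted p of 0.996, 0.865 and 0.938, so that a change of Il1a was not detectable with this probe set.

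Il33, the alarmin ligand of ST2, had high levels at the first and last time and a lower one between them. The log2 signals of Il33 were 6.23, 5.52, 5.81 and 5.44 in sham hearts, 9.88, 9.79, 10.47 and 9.64 at 6 h, 7.01, 6.35, 7.21 and 6.70 at 24 h, and 8.82, 9.87, 7.68 and 8.26 at 72 h. No 2 of the 6 h, 24 h and sham groups overlapped, and the 72 h hearts lay above all 24 h hearts. Il33 rose by 4.19 ± 0.33 at 6 h (SE, limma adjusted p = 3.14e-08), at least 9.09-fold, and by 2.91 ± 0.33 at 72 h (limma adjusted p = 3.16e-06), at least 3.72-fold.

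At 24 h the level of Il33 was 3.13 lower than at 6 h (limma adjusted p = 1.36e-06), and at 72 h it was 1.84 higher than at 24 h (limma adjusted p = 0.000847). The 24 h hearts were 1.06 ± 0.33 above sham (SE, limma adjusted p = 0.0236), but 2 of the 4 were below background. That call was lost without sham replicate 3 (adjusted p = 0.0644) or 5 (0.0653) and without 24 h replicate 14 (0.0598) or 16 (0.0768), in each case by limma. Fibroblasts and endothelial cells are known sources of Il33, and their markers moved as follows. Of 4 measured fibroblast markers (Col1a1, Dcn, Tcf21 and Lum) 1 was lower at 6 h, 2 were higher at 24 h and 4 were higher at 72 h, with a mean log2 signal of 10.93 to 11.36 in sham hearts, 10.38 to 10.94 at 6 h, 11.21 to 12.02 at 24 h and 13.31 to 13.90 at 72 h. Col1a1, a chain of fibrillar collagen, differed from sham by -0.37 at 6 h, which was not called, and was 5.78 above it at 72 h, and Lum, a small proteoglycan, fell by 0.95 at 6 h. Of 5 endothelial markers (Pecam1, Cdh5, Kdr, Tie1 and Tek) Pecam1 was 0.69 above sham at 6 h, and Kdr and Tek fell by 0.82 and 1.40 there. At 24 h and at 72 h 2 of the 5 were called lower than sham and none higher. The part of these cells in the level of Il33 was not tested.

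Il18, a ligand that is stored as a precursor and induces interferon gamma in lymphocytes, was the late member. Its log2 signals were 4.59, 5.36, 5.22 and 5.36 in sham hearts, 6.21, 5.14, 5.42 and 4.91 at 6 h, 5.94, 5.89, 6.49 and 4.90 at 24 h, and 7.11, 7.16, 6.53 and 7.16 at 72 h. All 72 h hearts lay above all hearts of the other 3 groups, and 3 of the 4 were above background. Il18 rose by 1.86 ± 0.30 over sham at 72 h (SE, limma adjusted p = 0.000134), at least 1.17-fold. The 72 h mean was only 0.23 above background, less than the SE of the change. At 72 h Il18 was 1.19 higher than at 24 h (limma adjusted p = 0.0112) and 1.57 higher than at 6 h (limma adjusted p = 0.000452).

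The earlier differences of Il18 from sham, 0.29 at 6 h and 0.68 at 24 h, did not pass (limma adjusted p = 0.591 and 0.108). Without 24 h replicate 17 the 24 h difference was 0.98 and passed (limma adjusted p = 0.0109). Il18 was below background on every sham, 6 h and 24 h array, so these differences lie between levels below background. Monocyte and macrophage markers were raised by 24 h and stayed so at 72 h: of 7 measured (Itgam, Adgre1, Csf1r, Ccr2, Lyz2, Cd14 and Ly6c2), 3 exceeded sham hearts at 6 h, 6 at 24 h and 6 at 72 h. Their mean log2 signal was 8.51 to 8.66 in sham hearts, 9.34 to 9.72 at 6 h, 10.41 to 11.94 at 24 h and 11.13 to 11.80 at 72 h. Ccr2, the receptor that brings monocytes out of the marrow, was 5.11 above sham at 24 h and 5.23 at 72 h, and Adgre1, the macrophage antigen F4/80, was 1.45 and 2.68 above it. The part of these cells in the level of Il18 was not tested.

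**Figure D2:**
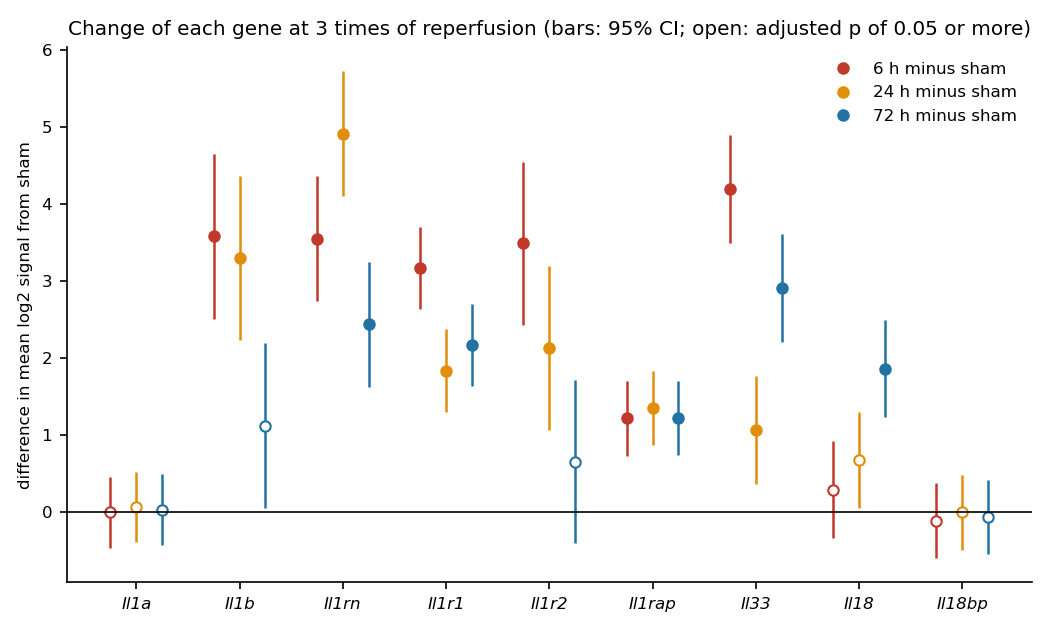
Difference in mean log2 signal from sham for each gene at 6, 24 and 72 h of reperfusion (n = 4 hearts a group), with the 95% confidence interval of the limma fit; filled points have an adjusted p below 0.05. Il33 differed from sham by 4.19 at 6 h and Il1rn by 4.91 at 24 h, where sham signals below background leave the sizes as measured values only, and the points of Il1a and Il18bp lie near 0 at all 3 times.

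Il1rn, the antagonist that competes with IL-1α and IL-1β for their receptor, was raised at all 3 times, with its highest mean at 24 h. The log2 signals of Il1rn were 4.19, 3.72, 3.69 and 3.96 in sham hearts, 7.54, 7.55, 7.497 and 7.15 at 6 h, 8.31, 9.57, 10.00 and 7.31 at 24 h, and 5.88, 6.79, 6.16 and 6.46 at 72 h. Every reperfused heart lay above every sham heart, and the 24 h hearts spread more widely than those of any other group. Il1rn rose by 3.55 ± 0.39 at 6 h (SE, limma adjusted p = 1.58e-06), at least 1.59-fold, and by 4.91 ± 0.39 at 24 h (limma adjusted p = 4.76e-08), at least 4.10-fold.

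At 72 h Il1rn was still 2.44 ± 0.39 above sham (SE, limma adjusted p = 0.000117), although 3 of the 4 hearts were then below background and no fold is given. It was 1.36 higher at 24 h than at 6 h (limma adjusted p = 0.0118), a call that was lost without 24 h replicate 15 (1.11, limma adjusted p = 0.054). It fell by 2.47 at 72 h relative to 24 h (limma adjusted p = 0.000218) and by 1.11 relative to 6 h (limma adjusted p = 0.0354). The last of these calls was lost on leaving out any of 6 h replicates 7, 8 or 10 or 72 h replicates 20, 22 or 23, with limma adjusted p between 0.0549 and 0.104.

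Il18bp, the secreted protein that binds and neutralises IL-18, was above background on all arrays and showed no called change. On the log2 scale Il18bp measured 8.10, 7.79, 8.52 and 8.27 in sham hearts, 8.28, 8.09, 7.83 and 8.02 at 6 h, 8.51, 7.35, 8.22 and 8.58 at 24 h, and 8.46, 7.82, 8.18 and 7.95 at 72 h. The groups overlapped throughout. The 95% intervals of the difference from sham were -0.60 to 0.37 at 6 h, -0.49 to 0.48 at 24 h and -0.55 to 0.42 at 72 h.

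Il1r1, the signalling receptor chain, was above background in all hearts and higher at every time. Its log2 signals were 10.52, 10.04, 10.31 and 10.28 in sham hearts, 13.84, 13.76, 13.62 and 12.59 at 6 h, 12.33, 12.54, 12.25 and 11.37 at 24 h, and 12.38, 12.60, 12.25 and 12.58 at 72 h. All reperfused hearts lay above all sham hearts, and all 6 h hearts above all 24 h hearts. The change was 3.16 ± 0.26 at 6 h (SE, limma adjusted p = 3.44e-08), or 8.97-fold on the deposited scale, 1.84 ± 0.26 at 24 h (adjusted p = 2.44e-05) and 2.17 ± 0.26 at 72 h (adjusted p = 4.1e-06). Il1r1 fell by 1.33 at 24 h relative to 6 h (limma adjusted p = 0.000578), and its level at 72 h did not differ from that at 24 h beyond the error (0.33, limma adjusted p = 0.51). Fibroblasts are a known site of Il1r1; of the 4 fibroblast markers given above 1 was lower at 6 h, 2 were higher at 24 h and 4 at 72 h, and their part in the level of Il1r1 was not tested.

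Il1r2, the decoy receptor that neutrophils and other myeloid cells can shed, was higher than sham at 6 h and at 24 h but was not called at 72 h. Its log2 signals were 5.54, 4.88, 5.03 and 4.65 in sham hearts, 8.68, 8.00, 9.46 and 7.90 at 6 h, 6.98, 7.77, 8.54 and 5.31 at 24 h, and 5.30, 6.75, 5.20 and 5.46 at 72 h. The 6 h hearts lay above all sham hearts, but 24 h replicate 17, at 5.31, fell within the sham range. Il1r2 rose by 3.48 ± 0.51 at 6 h (SE, limma adjusted p = 4.44e-05), at least 3.35-fold, and by 2.13 ± 0.51 at 24 h (limma adjusted p = 0.00364), at least 1.31-fold. The 24 h mean was only 0.39 above background, less than the SE of the change, and replicate 17 was below background.

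At 72 h Il1r2 was 0.65 above sham, which did not pass (limma adjusted p = 0.398), and relative to 6 h it fell by 2.83 (limma adjusted p = 0.000245). Every 72 h heart, like every sham heart, was below background for Il1r2. The steps between neighbouring times, -1.36 at 24 h relative to 6 h and -1.47 at 72 h relative to 24 h, just missed the threshold (limma adjusted p = 0.0519 and 0.0645). The first passed under quantile normalization, median centring, poly-A centring, both filters on dim genes and the eBayes trend (limma adjusted p between 0.026 and 0.0469) and also without 6 h replicate 8 or 11, 24 h replicate 15 or 16, or 72 h replicate 21, with limma adjusted p between 0.00902 and 0.048. The second passed under both filters, the eBayes trend and array weights (limma adjusted p between 0.0424 and 0.0469), without 24 h replicates 16 and 17 together (-1.70, limma adjusted p = 0.017), and also without 24 h replicate 17 (-2.09, limma adjusted p = 0.00173) or 72 h replicate 21 (-1.83, limma adjusted p = 0.0277). The neutrophil markers given beside Il1b were raised mostly at 6 h and 24 h too, and their part in the level of Il1r2 was not tested.

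Il1rap, the accessory chain that IL-1R1 and ST2 share, rose by much the same amount at every time. The log2 signals of Il1rap were 6.09, 5.56, 6.30 and 6.04 in sham hearts, 7.20, 6.94, 7.59 and 7.12 at 6 h, 7.53, 7.50, 7.81 and 6.54 at 24 h, and 7.30, 7.10, 6.99 and 7.47 at 72 h. All reperfused hearts lay above all sham hearts, and the 3 reperfused groups overlapped each other. The change was 1.22 ± 0.23 at 6 h, 1.35 ± 0.23 at 24 h and 1.22 ± 0.23 at 72 h (SE, limma adjusted p = 0.000665, 0.000198 and 0.000671), at least 1.37-fold, 1.496-fold and 1.37-fold.

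Between times, 1 of the 9 genes was higher and 2 were lower at 24 h than at 6 h, where 17.3% of all genes were higher and 10.9% lower. At 72 h relative to 24 h 2 were higher and 2 lower, against 6.85% and 6.07% of all genes. At 72 h relative to 6 h 1 was higher and 5 were lower, against 17.5% and 13.1% of all genes. The 5 that were lower were Il1b, Il33, Il1rn, Il1r1 and Il1r2, and the 1 that was higher was Il18. This count depended on the scaling: with arrays centred on hybridization spike-ins 4 were higher (Il18, Il1a, Il18bp and Il1rap) and 2 lower (Il1b and Il1r2), and with poly-A spike-ins 2 were higher (Il18 and Il1a) and 3 lower (Il1b, Il33 and Il1r2). For 24 h relative to 6 h hybridization centring gave 5 higher and 2 lower.

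The balance of ligand to antagonist and of receptor to decoy was read as the difference of 2 log2 signals on the same array, set to 0 at the sham mean. The 3 pairs were chosen after their values were seen, so they are described without a test, and a difference of this kind shows unequal change only. Il1rn minus Il1b was -0.68 to 0.55 in sham hearts, -0.77 to 1.31 at 6 h, 1.44 to 1.85 at 24 h and 0.76 to 2.29 at 72 h. The 24 h and 72 h hearts did not overlap sham, whereas at 6 h the mean of -0.03 ± 0.95 (SD, n = 4) lay within the sham spread of 0.54 (SD, n = 4). Sham signals of both genes were below background, so the rise of each is bounded only from below. The bounds at 24 h, at least 4.80-fold for Il1b and at least 4.10-fold for Il1rn, cannot be ordered. These data therefore do not settle which of the pair changed more.

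Il1r2 minus Il1r1, the decoy relative to the signalling chain, overlapped sham at 6 h and 24 h. At 72 h it was -1.86 to -0.59, below the sham range of -0.37 to 0.28, at a time when Il1r1 was called higher than sham and Il1r2 was not. Il18 minus Il18bp was 1.39 to 2.37 at 72 h against -0.47 to 0.61 in sham hearts, and the groups did not overlap. At 6 h and 24 h it overlapped sham. Sham levels of Il1r2 and Il18 were also below background, and so was Il1r2 in every 72 h heart. The size of these differences, too, is known only as measured. At 72 h Il1r2 minus Il1r1 thus sets a raised Il1r1 against an Il1r2 level below background in both groups.

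**Figure D3:**
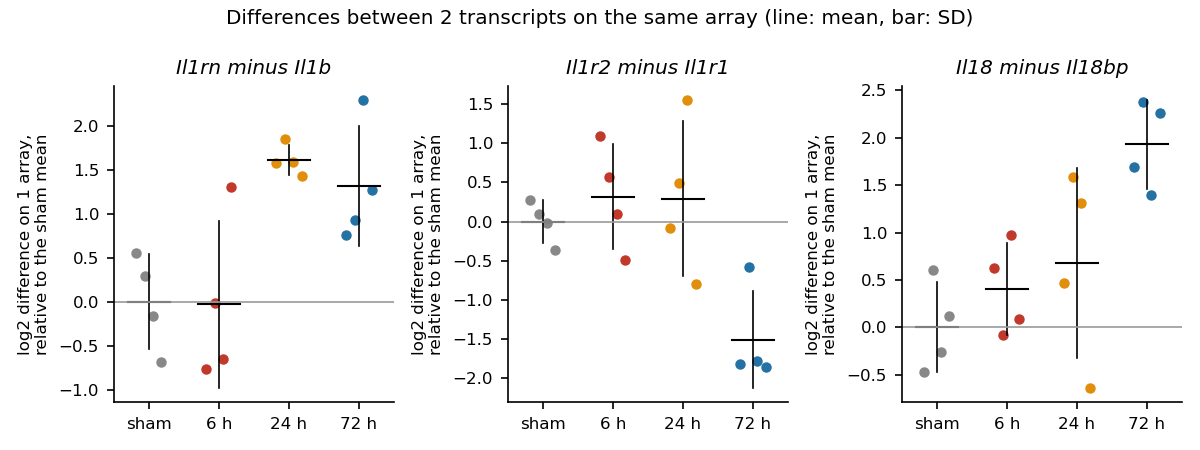
Difference of log2 signal between 2 genes on the same array, relative to the sham mean, by group, with the mean (line) and SD (bar); n = 4 hearts a group. Il1rn minus Il1b lay at 1.44 to 1.85 at 24 h, Il1r2 minus Il1r1 at -1.86 to -0.59 at 72 h, and Il18 minus Il18bp at 1.39 to 2.37 at 72 h.

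Of 10 other measured genes of the family, 2 were higher than in sham hearts at 6 h, 3 at 24 h and 2 at 72 h, and all 10 were below background in sham hearts. Il1rl2, the IL-36 receptor chain, rose by 1.37, 0.91 and 1.66 at 6, 24 and 72 h (limma adjusted p = 1.48e-05, 0.000828 and 1.59e-06). Il18rap, the accessory chain of the IL-18 receptor, rose by 2.35 at 6 h and 0.90 at 24 h (limma adjusted p = 4.9e-06 and 0.0231), and Il18r1, its ligand-binding chain, by 0.91 at 72 h (limma adjusted p = 0.000624). Il1f9, which encodes the ligand IL-36γ, rose by 1.93 at 24 h (limma adjusted p = 0.0055). The means of Il18rap and Il1f9 at 24 h and of Il18r1 at 72 h were below background. In the chromosome 1 run the changes at 6 h were thus 3.48 for Il1r2, 3.16 for Il1r1, 1.37 for Il1rl2, 0.02 for Il18r1 and 2.35 for Il18rap, all but Il18r1 called.

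Genes that mature and release the ligands were raised more at the later times. Of 10 measured, 3 were higher and 1 was lower than in sham hearts at 6 h, 5 were higher at 24 h and 6 at 72 h, and none was lower at the later times; the list medians were -0.04, 0.58 and 1.01. Casp1, the protease that cleaves pro-IL-1β and pro-IL-18, differed from sham by -0.19 at 6 h (limma adjusted p = 0.646) and rose by 1.24 at 24 h and 1.73 at 72 h (limma adjusted p = 0.000253 and 9.37e-06). Casp4, the caspase that senses cytosolic lipopolysaccharide, was already up at 6 h, by 3.0 (limma adjusted p = 6.35e-08), and by 1.45 and 1.39 later. Nlrp3, the inflammasome sensor, was 1.75 above sham at 24 h (limma adjusted p = 4.62e-05), with both means below background.

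P2rx7, the ATP-gated channel that triggers NLRP3, fell by 0.78 at 6 h (limma adjusted p = 0.0185), between means below background, and rose by 1.16 at 24 h and 2.43 at 72 h (limma adjusted p = 0.00072 and 2.23e-07). Also higher at 6 h were Nek7 (0.78), a partner of NLRP3, and Txnip (1.10), and Gsdmd, which forms the release pore, was higher at 24 h (0.72) and 72 h (1.05). Aim2 and Nlrc4, sensors of other inflammasomes, were called higher at 72 h, with all of these means below background. The adaptor Pycard did not pass at any time.

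Of 14 measured genes of receptor signalling, 5 were higher and 2 lower than in sham hearts at 6 h, 1 was higher and 1 lower at 24 h, and 3 were higher at 72 h. Of all genes 7.92%, 13.8% and 11.5% were higher and 12.3%, 12.3% and 10.3% lower at 6, 24 and 72 h. Irak3, the kinase relative that restrains IL-1 and Toll-like receptor signalling, had the largest change of the list at 6 h, 3.19 (limma adjusted p = 3.4e-11), and differed by 0.28 at 24 h (limma adjusted p = 0.195) and 0.71 at 72 h (limma adjusted p = 0.00173). Myd88, the adaptor of both receptor families, rose by 2.02, 1.93 and 1.54 at 6, 24 and 72 h. Peli1, a ubiquitin ligase of the pathway, rose by 1.72 at 6 h, Irak2 by 1.60 and Map3k8, a kinase that feeds the ERK cascade, by 1.66 at 6 h and 0.70 at 72 h. Lower at 6 h were Ikbkg (-0.78, between means below background) and Tab1 (-0.54), and lower at 24 h was Tollip (-0.44).

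Genes known to respond to IL-1 were mostly raised early. Of 21 measured, 17 were higher than in sham hearts at 6 h, 15 at 24 h and 9 at 72 h, with none lower, and the list medians were 2.04, 1.41 and 0.59. Many of these genes also respond to other signals, such as TNF. Il6, a cytokine of the acute phase, rose by 6.98 at 6 h, 3.08 at 24 h and 2.40 at 72 h, and Cxcl5, a neutrophil chemokine, by 6.46, 4.62 and 3.58. Ccl2, the monocyte chemokine, rose by 6.04, 6.79 and 2.81, and Lcn2, an iron-sequestering protein of neutrophils and stressed tissue, by 6.51, 6.32 and 2.12. The means of Il6 at 24 h and 72 h, like that of sham, were below background. Adjusted p-values of these 12 changes were at most 0.00823 by limma.

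IL-33 and IL-18 are known to act on lymphocytes. Of 6 measured genes of type 2 immunity, Il4, Il5, Il13, Icos, Klrg1 and Il2ra, none differed from sham at any time by limma, and all 6 were below background in every group; the differences ran from -0.32 to 0.35. Of 9 measured genes of the interferon gamma axis, 1 was higher at 6 h, 1 at 24 h and 2 at 72 h. Of all genes 7.92%, 13.8% and 11.5% were higher at these times. Cxcl10, an interferon-induced chemokine, rose by 3.02, 1.64 and 2.95, and Ciita, the master regulator of class II MHC, by 0.64 at 72 h (limma adjusted p = 0.0181); the means of Cxcl10 at 24 h and of Ciita at 72 h were below background. Ifng itself differed from sham by 0.01, 0.14 and 0.33, with limma adjusted p of 0.982, 0.672 and 0.276. The 5 T cell markers (Cd3d, Cd3e, Cd3g, Cd4 and Cd8a) were below background in every group and none differed from sham by limma, and of 6 mast cell markers (Cpa3, Tpsb2, Mcpt4, Kit, Fcer1a and Ms4a2) Ms4a2 alone was called. It fell by 0.83 at 24 h and by 0.62 at 72 h, between means below background.

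**Figure D4:**
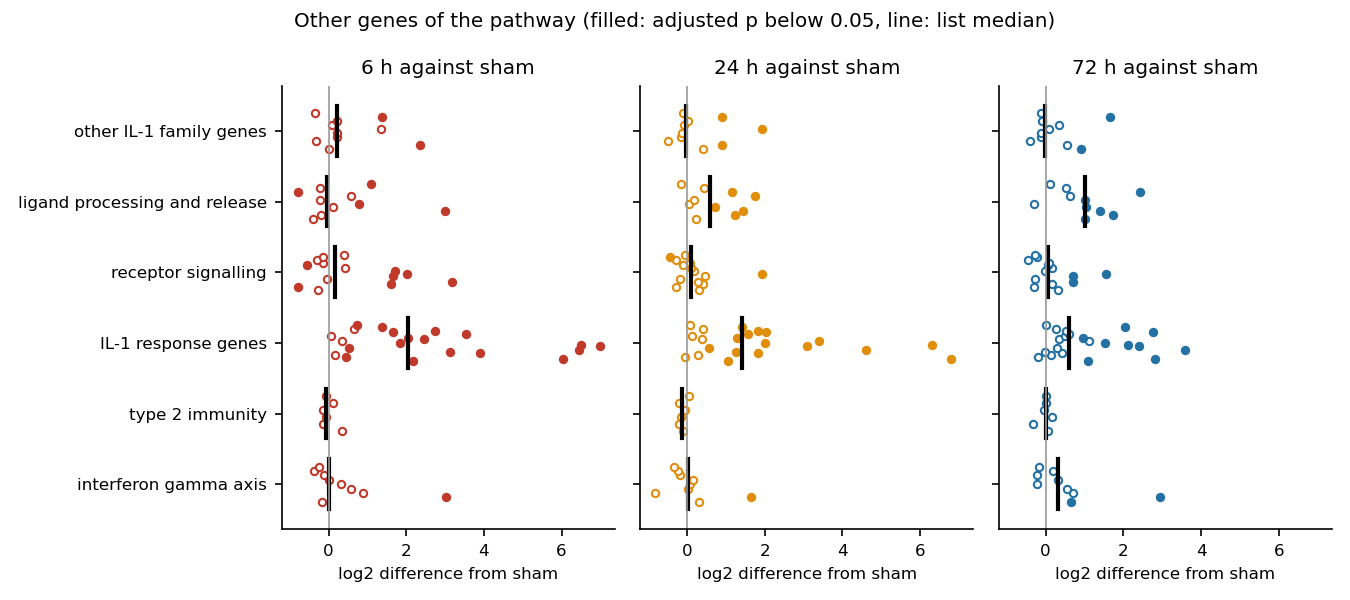
Log2 difference from sham of every measured gene in 6 lists of the pathway at 6, 24 and 72 h; filled points have an adjusted p below 0.05 by limma, and lines are list medians. The IL-1 response genes had medians of 2.04, 1.41 and 0.59, the processing and release genes -0.04, 0.58 and 1.01, and the type 2 immunity genes lie within -0.32 to 0.35.

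The genes whose values over the 16 arrays were most like each called gene, by root mean square difference of centred log2 signals, are given as a description. They were picked for likeness on these same arrays, so a like order in time largely follows from the choice. For Il1b they were Ccr1 (0.63), Clec4e (0.63) and Cxcr2 (0.64), for Il1rn Tubb6 (0.50), Ccl7 (0.54) and Pdpn (0.57), and for Il1r2 Sele (0.57), Ptgs2 (0.60) and Rnd1 (0.61). For Il33 they were Sat1 (0.72), Ifi207 (0.76) and Ifi211 (0.77). Those 3 genes had the same order of levels in time as Il33, with changes from sham of 3.05, 0.63 and 2.00 for Sat1, 3.45, 1.48 and 3.19 for Ifi207 and 3.70, 2.17 and 3.42 for Ifi211 at 6, 24 and 72 h.

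The nearest genes to Il18 were Prdx4 (0.36), Hpse (0.36) and H2-DMa (0.38), all of which were highest at 72 h. Il1r1 was nearest to Gda (0.37), Dbn1 (0.38) and Sla (0.41). Il1rap was nearest to Adss (0.16), Btg1 (0.23) and Sdcbp (0.24), the smallest values of the 7. The measure is not scaled to the size of a gene's changes, which for Il1rap were 1.22, 1.35 and 1.22 against sham. A small value is therefore not by itself a closer likeness.

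Single hearts differed within groups. At 24 h replicate 17 had the lowest signal of its group for Il1b, Il1rn, Il1r1, Il1r2, Il1rap and Il18, and it also had the lowest mean of the neutrophil markers (5.27, against 6.35 to 7.66 in the other 24 h hearts) and of the macrophage markers (10.41, against 11.04 to 11.94). Replicate 16 of the same group had the highest signals for Il1b, Il1rn, Il1r2, Il1rap, Il33 and Il18, with the highest neutrophil and macrophage means (7.66 and 11.94). It was also the 24 h heart whose atrial markers (Myl4, Myl7, Sln, Bmp10 and Dkk3) stood apart, with a mean of 9.38 against 4.97 to 5.19 in the others, and 72 h replicates 21 and 23 had atrial means of 6.33 and 6.22. With replicates 16 and 17 both left out, an alternative chosen after seeing the data, Il33 at 24 h lost its call (0.93, limma adjusted p = 0.129) and no other call against sham changed.

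**Figure D5:**
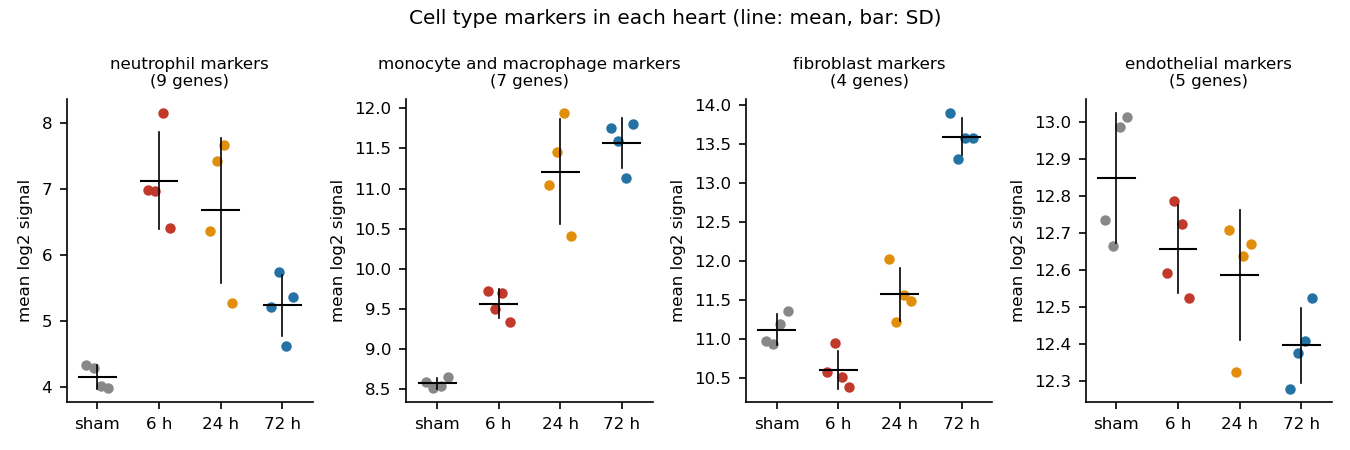
Mean log2 signal of 4 lists of cell type markers on each array, by group, with the group mean (line) and SD (bar); n = 4 hearts a group. Neutrophil markers were highest at 6 h and 24 h (up to 8.15 and 7.66), macrophage markers at 24 h and 72 h (up to 11.94 and 11.80) and fibroblast markers at 72 h (13.31 to 13.90).

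Cardiomyocyte markers checked the tissue. The 5 genes (Myh6, Tnnt2, Actc1, Tnni3 and Ryr2) had mean log2 signals of 17.56 to 17.67 in sham hearts, 17.44 to 17.61 at 6 h, 17.07 to 17.32 at 24 h and 17.26 to 17.52 at 72 h. None was called at 6 h, and 2 of the 5 were called lower than sham at 24 h and 2 at 72 h, with none higher. Their median changes were -0.09, -0.38 and -0.27 at 6, 24 and 72 h. Ryr2, the calcium release channel, was 0.93 lower than sham at 24 h and 0.43 lower at 72 h.

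How arrays are brought to one scale moved all genes together. Centring on 4 hybridization spike-ins gave a median change of all genes of -0.26, 0.24 and 0.40 at 6, 24 and 72 h relative to sham, and centring on 4 poly-A spike-ins gave -0.37, -0.16 and 0.09; for 72 h relative to 6 h the median under hybridization centring was 0.66, against -0.06 as deposited. The share of calls that were higher than sham was 39.2% at 6 h as deposited, against 19.6% and 12.4% under the 2 spike-in centrings. It was 53.0% at 24 h, against 84.4% under hybridization centring and 42.6% under median centring, and 52.9% at 72 h, against 96.7% and 82.3% under the hybridization and poly-A centrings and 34.95% under median centring. For 24 h relative to 6 h it was 61.2%, against 94.8%, 85.5% and 45.4% in that order, for 72 h relative to 6 h 57.2%, against 96.6%, 93.7% and 37.7%, and for 72 h relative to 24 h 53.1%, against 79.9% and 86.7% under the spike-in centrings. Every call of the 9 genes against sham held its direction and its side of the threshold under these centrings, other than Il1b at 72 h and Il18 at 24 h, which then passed. Under hybridization centring Il1a, Il18, Il18bp and Il1rap were higher at 24 h than at 6 h, by 0.60, 0.91, 0.64 and 0.66, where the median change of all genes was 0.49.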

How the data were processed

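RNA was hybridised to 16 Affymetrix arrays, each taken as a separate heart. The authors deposited log2 values made with Affymetrix Expression Console, per the submitters' processing notes; how probes were summarized and which version ran are not stated there. A log base of 2 was assumed. Since the top value, 19.82, lies beyond what a scanner reads, folds hold only on the authors' own scale. The design text names another array than the one whose identifiers the table carries, and the series title gives other hours than the sample labels; identifiers and labels were followed.

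Values were used as deposited, with array medians of 5.84 to 5.95. Of 28846 probe sets 19572 carried 1 gene symbol by the platform annotation, 0 several and 9274 none; the probe set of highest mean was kept for the 55 genes with more than 1, leaving 19505 genes without a filter. Of 138 listed genes 125 were measured, 3 through an older symbol. No 2 arrays were identical (highest correlation 0.990). The labels' replicates were taken as separate hearts. The p-values set a difference in means against the spread between arrays within groups.

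Group means were fitted with limma 3.58.1 in R 4.3.3 (12 residual and 6.943 prior degrees of freedom; median SE of a change 0.183; the number of arrays limits the precision) and checked on simulated data. The members and lists were chosen with earlier results of these data known. Named were all members, up to 4 genes of each other list with the largest called change against sham, all genes of lists of 8 or fewer, and 3 genes most like each member that passed the F test; Camp, Ltf, Nek7, Txnip, Gsdmd, Aim2, Nlrc4, Pycard, Irak2, Ikbkg, Tab1, Tollip and Ifng were added after their values were seen. Alternatives were other scalings, filters, eBayes settings and array weights, the compared groups alone, and each array left out. Promoters are RefSeq's (GRCm38.p6).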

Additional observations from a re-analysis of the deposited data

Results flagged for a closer look

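In 3 of 36 groups of 4 hearts a single value stood far from the others by Dixon's gap test, of which chance flags about 1 in 20 groups. Il1rn was lowest in 6 h replicate 11, at 7.15. Il1r2 was highest in 72 h replicate 21, at 6.75. That heart also had the highest Il1b, Il1rn, Il33 and Il1r1 of its group. Its neutrophil and atrial marker means (5.74 and 6.33) were the highest too. Il18 was lowest in 72 h replicate 22, at 6.53. This heart was also the lowest of its group for Il1b, Il33, Il1r1, Il1r2 and Il1rap. Its neutrophil and macrophage marker means (4.62 and 11.13) were the lowest as well.

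The change from sham differed between times, by limma contrasts of the times themselves, in 13 cases. Il33 differed in all 3 pairs of times, by -3.13 (24 h minus 6 h), 1.84 (72 h minus 24 h) and -1.29 (72 h minus 6 h), and so did Il1rn, by 1.36, -2.47 and -1.11. Il1b differed by -2.17 (72 h minus 24 h) and -2.45 (72 h minus 6 h), and Il18 by 1.19 and 1.57. Il1r1 differed by -1.33 (24 h minus 6 h) and -0.999 (72 h minus 6 h), and Il1r2 by -2.83 (72 h minus 6 h).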

How the results depend on the processing

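Over 54 differences (9 genes in 6 comparisons) and 28 settings, 1444 of 1494 values kept their side of the threshold, 17 fell short of it and 33 newly passed it. Of called values 0 reversed, but 64 of the 1444, none of them called, changed sign. A call changed under some setting for 16 of the 54 differences, 3 of them against sham (Il33 and Il18 at 24 h, Il1b at 72 h). Spike-in centring moved counts most. All named genes called at 6 h against sham numbered 6951 under poly-A centring (3940 as deposited), and at 72 h against sham 7517 under hybridization centring (4251). For 24 h against 6 h hybridization centring called 7 of the 9 genes (3 as deposited) and 10350 of all genes (5507); for 72 h against 6 h hybridization and poly-A centring called 14108 and 9788 of all genes (5959). Il1r1 at 72 h against 6 h lost its call under both (-0.28 and -0.47), Il1rn likewise (-0.39 and -0.59), and Il33 under hybridization centring (-0.57). With each array left out in turn, the count of called genes among the 9 was 6 to 6 at 6 h, 5 to 7 at 24 h and 5 to 6 at 72 h against sham, 3 to 4 and 5 to 6 for 24 h and 72 h against 6 h, and 4 to 5 for 72 h against 24 h. No paired analysis was possible because no 2 groups share replicate numbers. Levels below background limit the size of changes of Il1b, Il33, Il18, Il1rn, Il1r2 and Il1rap, and no level of Il1a was above background.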
